A study of Mus musculus with 6 samples.

Results

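Flna, Flnc, Dchs1, Fat4, Tns1 and Lmcd1 are 6 of the 46983 genes in the deposited gene table, and they were chosen by symbol as filamins, partners of the Dchs1-Fat4 cadherin pair or genes linked to mitral valve prolapse. RNA-sequencing was performed on aortic valves from wild type C57BL/6J mice, with 3 libraries at postnatal day 2 (PND2, age 2 days) and 3 at 4 months. No treatment or engineered allele is given for either age, and each library was a pool of valves from 5 to 6 mice, whose sex is not given. Levels are in RPKM, the reads on a gene scaled by its exonic length and by the library total. The totals were 38994657, 30518001 and 29260736 for PND2 replicates 1 to 3 and 37350916, 23810507 and 28943701 for 4 month replicates 1 to 3.

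Filamins are long dimeric proteins that cross-link actin filaments and bind integrins and many other partners. Flna is the X-linked, broadly expressed filamin, and its mutations cause a myxomatous valve dystrophy in people, while Flnc is the filamin of heart and skeletal muscle. Dchs1 and Fat4 are giant cadherins that bind each other between neighbouring cells, and mutations of DCHS1 segregate with familial mitral valve prolapse. Tns1, which links integrins to actin at focal and fibrillar adhesions, and Lmcd1, a LIM-domain protein that represses GATA6, lie at loci associated with the same disorder. The prolapse links of Dchs1, Tns1 and Lmcd1 concern the mitral valve, and the libraries here hold the aortic valve.

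From PND2 to 4 months, Flna, Tns1 and Lmcd1 increased, Flnc and Dchs1 decreased, and Fat4 was not called. Genes were compared with limma on log2(RPKM + 0.1) over the 25903 genes with at least 0.1 RPKM in 3 or more libraries, and called at a Benjamini-Hochberg adjusted p under 0.05. All 6 genes passed this filter. Of all genes tested, 14.7% were called higher at 4 months and 21.1% lower, 35.8% in all, against 3 and 2 of the 6 genes. PND2 and 4 month values were fully separate for 50% of genes tested and for 5 of the 6. Over all tested genes the log2 fold change had a median of -0.14, which became -0.024 after each library was scaled to a common median. That scaling turned the balance of directions, from 3810 genes called higher and 5463 lower to 4573 higher and 4172 lower, and left the calls of the 6 genes as they were.

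PND2 replicate 1 stood apart from the other PND2 libraries in several measures. Xist, the RNA made from the inactive X chromosome of female cells, was at 109, 0.0457 and 0.101 RPKM at PND2 and at 0.154, 110 and 40.8 RPKM at 4 months. PND2 replicate 1 was thus the only PND2 library with high Xist, and 4 month replicate 1 the only 4 month library without it. The libraries also differed in how far the reads leaned towards the 3′ ends of transcripts. Over 3196 protein-coding genes with at least 5000 exonic bases, the median log2 ratio of RPKM in the 3′ part of the transcript to that in the 5′ part (the last and the first of 3 equal parts of the exonic bases) was 1.09, 0.804 and 0.809 at PND2 and 1.05, 1.03 and 1.17 at 4 months. In this measure PND2 replicate 1 fell among the 4 month libraries.

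Flna (ENSMUSG00000031328, chrX:74223461-74249820 of mm10, minus strand) was the most abundant of the 6 genes at both ages. It was at 538, 901 and 671 RPKM at PND2 and at 2046, 1459 and 1527 RPKM at 4 months. Every 4 month library was above every PND2 library, and at each age the libraries with high Xist had the lower values. The same order held for Tns1 and Lmcd1, which are not X-linked, so it was not particular to Flna. The mean increased 2.38-fold, from 703 ± 184 to 1677 ± 321 RPKM (SD, n = 3), which is 1.27 on the log2 scale (SE 0.23, limma adjusted p = 0.00506). It was 1.09 without PND2 replicate 1 and 1.43 with Xist as a covariate, with limma adjusted p-values of 0.0146 and 0.00163. It was not called by a test of each gene alone with unequal variances (adjusted p = 0.0626), the kind of test that the study itself used. At 3 libraries an age, that test borrows no strength from other genes. Between 184540 and 718406 reads stood behind each library's value.

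Tns1 (ENSMUSG00000055322, chr1:73910231-74124449, minus strand) increased. It was at 105, 134 and 110 RPKM at PND2 and at 336, 267 and 282 RPKM at 4 months. The ages were far apart, with PND2 replicate 2 and 4 month replicate 2 the closest pair. The mean increased 2.54-fold, from 116 ± 15.5 to 295 ± 36.5 RPKM (SD, n = 3), and its log2 fold change was 1.34 (SE 0.13, limma adjusted p = 0.000472).

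Lmcd1 (ENSMUSG00000057604, chr6:112273758-112330425, plus strand) was close to Tns1 in level and in change. It was at 95.3, 112 and 104 RPKM at PND2 and at 280, 215 and 250 RPKM at 4 months, and the ages did not overlap. The mean increased from 104 ± 8.14 to 248 ± 32.6 RPKM (SD, n = 3), and its log2 fold change was 1.26 (SE 0.12, limma adjusted p = 0.000435). The gene tables of the study were drawn from these samples and hold Lmcd1, so its direction here is not independent of that choice.

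Flnc (ENSMUSG00000068699, chr6:29433256-29461883, plus strand), the muscle filamin, moved the opposite way from Flna. It was at 81.9, 84.8 and 81.1 RPKM at PND2 and at 53.7, 56.1 and 61.5 RPKM at 4 months, with narrow ranges that did not overlap. The mean was 1.45-fold lower at 4 months, 82.6 ± 1.99 against 57.1 ± 4.02 RPKM (SD, n = 3), and the log2 fold change was -0.53 (SE 0.09, limma adjusted p = 0.0035). With median scaling it was -0.41.

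Dchs1 (ENSMUSG00000036862, chr7:105752989-105787654, minus strand), the large cadherin that is the ligand of Fat4, decreased. It was at 14.9, 21.4 and 21.7 RPKM at PND2 and at 9.23, 8.53 and 9.51 RPKM at 4 months. PND2 replicate 1 lay between the other PND2 libraries and the 4 month libraries, and the ages did not overlap. The mean was 2.13-fold lower at 4 months, 19.3 ± 3.83 against 9.09 ± 0.505 RPKM (SD, n = 3), and the log2 fold change was -1.06 (SE 0.17, limma adjusted p = 0.00289). It was -1.24 without PND2 replicate 1. Like Flna, it was not called by the test of each gene alone.

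Fat4 (ENSMUSG00000046743, chr3:38886940-39011985, plus strand), the receptor of Dchs1, was at 11.3, 19.1 and 17.8 RPKM at PND2 and at 12.2, 9.63 and 9.78 RPKM at 4 months. PND2 replicate 1 was below 4 month replicate 1, so the ages overlapped, while the other PND2 libraries were above all 4 month libraries. The means were 16.0 ± 4.19 and 10.5 ± 1.42 RPKM (SD, n = 3), and the log2 fold change of -0.58 (SE 0.22) did not pass the threshold (limma adjusted p = 0.0752). Without PND2 replicate 1 the log2 fold change was -0.81 and was called (limma adjusted p = 0.00826). It was also called with Xist as a covariate, where it was -0.41 (limma adjusted p = 0.0398), and with voom on the recovered reads, where it was -0.58 (adjusted p = 0.0423).

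**Figure D1:**
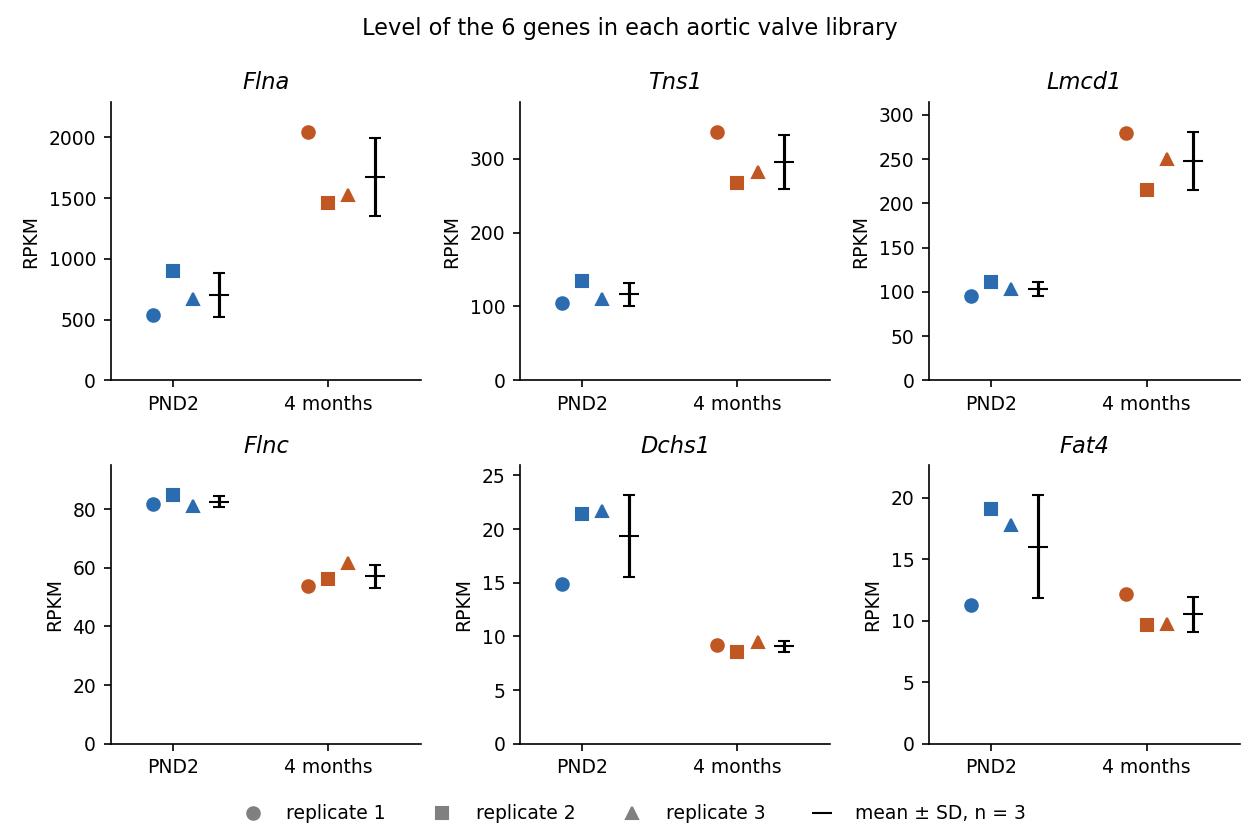
RPKM (y axis, from 0) of each of the 6 genes in the 3 PND2 libraries (blue) and the 3 4 month libraries (orange), with marker shape giving the replicate number and the black bar the mean ± SD. Flna, Tns1 and Lmcd1 are higher in every 4 month library, Flnc and Dchs1 are lower in every 4 month library, and for Fat4 the circle of PND2 replicate 1 (11.3 RPKM) lies below that of 4 month replicate 1 (12.2 RPKM).

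All 6 genes were expressed in every library, over a wide range of levels per length. At PND2 the order of mean RPKM was Flna, Tns1, Lmcd1, Flnc, Dchs1 and Fat4. At 4 months it was Flna, Tns1, Lmcd1, Flnc, Fat4 and Dchs1. The ranges of Tns1 and Lmcd1 overlapped at both ages, and those of Dchs1 and Fat4 overlapped at PND2. Within each library, however, Tns1 was above Lmcd1, and within each PND2 library Dchs1 was above Fat4. At 4 months the lowest Fat4 library (9.63 RPKM) was only just above the highest Dchs1 library (9.51 RPKM).

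The balance between related genes was compared within each library. Tns1 held 54.0 ± 1.93% of the summed tensin RPKM at PND2 and 59.8 ± 2.38% at 4 months (SD, n = 3). Fat4 held 25.5 ± 3.74% of the summed RPKM of Fat1 to Fat4 at PND2 and 18.6 ± 2.08% at 4 months (SD, n = 3). The log2 ratio of Dchs1 to Fat4 was 0.40, 0.16 and 0.29 at PND2 and -0.40, -0.17 and -0.040 at 4 months, so that Dchs1 was above Fat4 in each PND2 library and below it in each 4 month library. None of these 3 quantities overlapped between the ages, and each gave p = 0.1 in a 2-sided exact permutation test, the smallest p that 3 libraries against 3 allow. Of the 3, only the Fat4 share kept its direction when computed from either end of the transcripts. From exons in the 5′ part alone, the log2 ratio of Dchs1 to Fat4 had a mean of 0.86 at PND2 and 1.0 at 4 months and overlapped between the ages, and from the 3′ part alone it had means of -0.24 and -0.81. The Tns1 share likewise turned in the 5′ part, with means of 40.7% and 38.5%, against 58.3% and 67.0% in the 3′ part. These values were added after the data were seen.

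The exon table, with RPKM for each annotated exon, showed 4 exons of these genes whose use relative to the rest of the gene differed between the ages, 3 in Tns1 and 1 in Flnc. They are the called exons among 237 tested in the 6 genes (1.69%), against 0.708% of all 154428 exons tested with limma's diffSplice. With exons down to a mean of 10 reads these became 10 of 249 (4.02%) and 0.996% of 225838. The test compares an exon's log2 fold change with the mean of the gene's other exons, and it takes exons with a mean of at least 50 reads. It pools the spread over all tested exons of a gene, which come from the same libraries and partly overlap. Its very small p-values thus do not measure the spread of the exon named between pools. On simulated data it recovered nearly all planted exons. Calls in genes made without a change were few where the spread between libraries followed an exon's level, but outnumbered the planted exons where each exon was given a spread of its own, so any single exon call is uncertain. The sequences of 3 of them are shown because they are short coding exons that can be kept or skipped, together with a 24-base exon of Flna that narrowly missed the threshold and the 24-base exon of Flnc at the same place in the gene. They were chosen after their values were seen. Each is read 5′ to 3′ as transcribed, with the exon in capitals and 15 bases of the neighbouring exons in lower case. Positions are those of mm10, the sequence is from GENCODE transcripts of the same build, and each exon is coding in the transcript named.

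Tns1 24-base exon (exon 23 of Tns1-201, chr1:73936332-73936355, minus strand): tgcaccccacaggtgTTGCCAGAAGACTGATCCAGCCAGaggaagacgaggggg
Tns1 39-base exon (exon 24 of Tns1-201, chr1:73935898-73935936, minus strand): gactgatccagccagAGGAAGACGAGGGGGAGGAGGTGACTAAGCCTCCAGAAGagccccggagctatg
Flna 24-base exon (exon 29 of Flna-201, chrX:74232967-74232990, minus strand): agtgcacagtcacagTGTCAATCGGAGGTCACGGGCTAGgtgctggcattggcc
Flnc 24-base exon (exon 29 of Flnc-201, chr6:29451997-29452020, plus strand): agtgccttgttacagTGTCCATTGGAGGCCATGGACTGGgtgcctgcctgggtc
Flnc 99-base exon (exon 31 of Flnc-201, chr6:29452799-29452897, plus strand): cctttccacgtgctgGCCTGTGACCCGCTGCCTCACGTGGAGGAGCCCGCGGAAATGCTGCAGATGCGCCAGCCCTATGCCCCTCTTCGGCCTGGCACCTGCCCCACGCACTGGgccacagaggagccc

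The length of every exon shown divides by 3, so that each can be left out without a shift of the reading frame. The Flna and Flnc 24-base exons carry the same base at 18 of 24 positions. In the annotation the 24-base and the 39-base exon of Tns1 are each held by 3 of the 7 coding transcripts that span them, the Flna 24-base exon by 1 of 4, the Flnc 24-base exon by 2 of 2 and the Flnc 99-base exon by 1 of 2.

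The neighbouring Tns1 exons moved in opposite directions. The 24-base exon was at 22.4, 23.2 and 21.4 RPKM at PND2 (15 to 21 reads) and at 365, 278 and 225 RPKM at 4 months (156 to 327 reads). Relative to the mean RPKM of exons 22 and 25, which flank the pair, its level was 0.170 ± 0.0323 at PND2 and 0.948 ± 0.193 at 4 months (SD, n = 3), a 5.56-fold increase. Its log2 fold change exceeded that of the other Tns1 exons by 2.45 (diffSplice in limma, adjusted p = 2.82e-21; 0.00204 with voom weights).

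The 39-base exon was at 66.4, 108 and 92.0 RPKM at PND2 and at 63.8, 53.8 and 50.5 RPKM at 4 months, and was the only Tns1 exon tested that was lower at the later age. Relative to the same flanking exons it was 0.657 ± 0.0383 at PND2 and 0.184 ± 0.0218 at 4 months (SD, n = 3), 3.56-fold lower. Its log2 fold change was below that of the other exons, with a difference of -1.92 (diffSplice in limma, adjusted p = 1.08e-13; 9.55e-05 with voom weights). For both exons the relative levels of the ages were far apart and did not overlap. Which of them occur together in a transcript cannot be read from exon values.

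The third called Tns1 exon, of 224 bases (chr1:73998245-73998468), is annotated in 2 non-coding transcripts and in none of the 8 coding transcripts that span it. It was at 6.07, 6.14 and 5.03 RPKM at PND2 and at 33.7, 34.1 and 31.6 RPKM at 4 months. Its log2 fold change exceeded that of the other exons by 1.29 (diffSplice in limma, adjusted p = 3.39e-06), which was not called with voom weights (adjusted p = 0.0734). The remaining 58 Tns1 exons tested had log2 fold changes between 0.64 and 1.51.

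The Flnc exon of 99 bases is the alternatively spliced exon of the first hinge of filamin C. It was the only one of 50 Flnc exons with a higher value at 4 months, and the other 49 had log2 fold changes between -0.98 and -0.36. It was at 19.2, 20.2 and 10.7 RPKM at PND2 and at 33.0, 21.6 and 36.6 RPKM at 4 months, with 31 to 122 reads in a library. Relative to exons 30 and 32 it was 0.167 ± 0.0367 at PND2 and 0.478 ± 0.136 at 4 months (SD, n = 3), 2.86-fold higher. The 4 month libraries were uneven, with relative levels of 0.548, 0.321 and 0.565, but all exceeded the highest PND2 library at 0.189. The log2 fold change of this exon exceeded that of the other Flnc exons by 1.46 (diffSplice in limma, adjusted p = 1.93e-13; 3.51e-05 with voom weights).

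The Flna exon of 24 bases was at 925, 1611 and 1229 RPKM at PND2 and at 1787, 1330 and 1307 RPKM at 4 months, so its level overlapped between ages while the rest of the gene increased. Relative to exons 28 and 30 it was 1.58, 1.49 and 1.51 at PND2 and 0.749, 0.794 and 0.761 at 4 months. These values were tight within each age and 1.99-fold apart. The difference from the other Flna exons was -1.0 and did not pass the threshold (diffSplice in limma, adjusted p = 0.0541). It passed without PND2 replicate 1 (0.0234), without PND2 replicate 2 (0.0195) and with exons down to a mean of 10 reads (0.0434, all by diffSplice in limma). It missed with voom weights (0.119), without PND2 replicate 3 (0.475) and without 4 month replicates 1, 2 or 3 (0.123, 0.238 and 0.380, by the same test). The exon at the same place in Flnc did not shift in the same way, at 2.39 ± 0.154 times its flanking exons at PND2 and 2.31 ± 0.380 times at 4 months (SD, n = 3), with a difference of -0.088 (diffSplice in limma, adjusted p = 1). The ratio exceeded 1 for the Flnc 24-base exon at both ages and for the Flna exon at PND2, so the ratios are read between ages and not between exons.

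**Figure D2:**
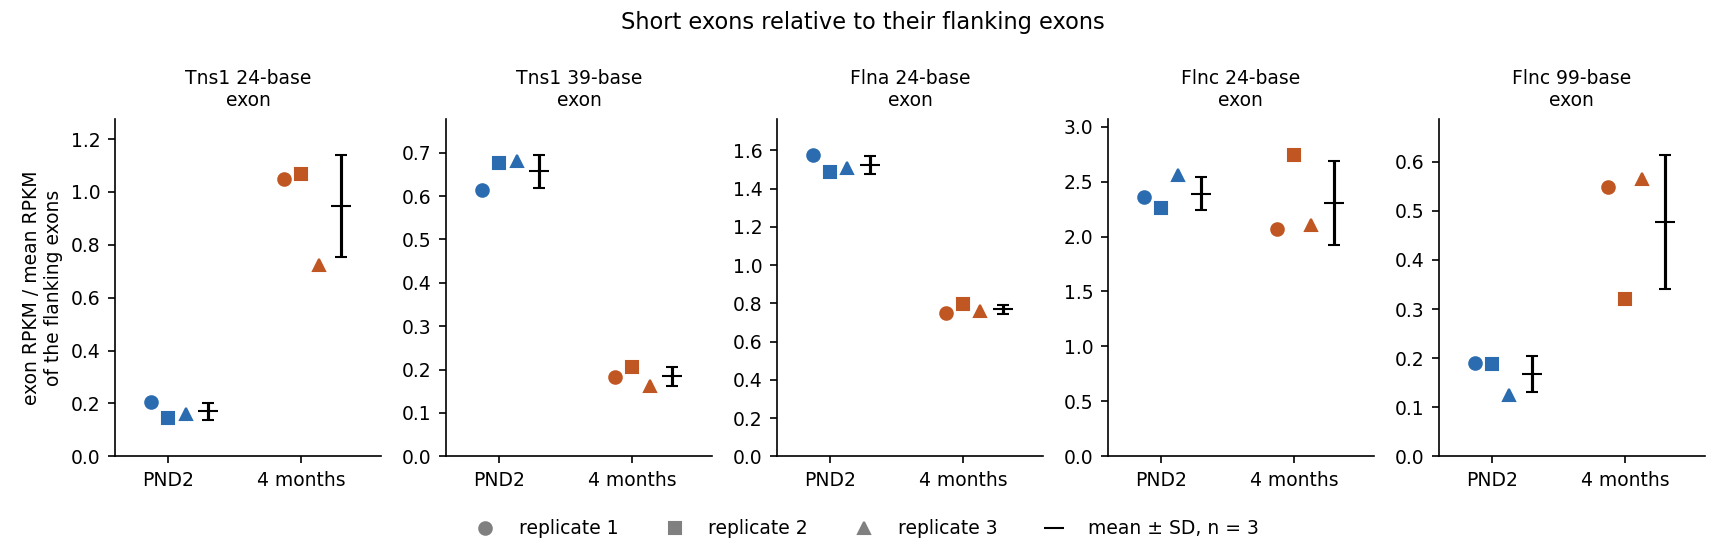
RPKM of each short exon divided by the mean RPKM of its flanking exons (y axis, from 0), in the 3 PND2 libraries (blue) and the 3 4 month libraries (orange), with the mean ± SD in black. The Tns1 exons shift in opposite directions (0.170 to 0.948 and 0.657 to 0.184), the Flna exon shifts from 1.53 to 0.768, the Flnc 24-base exon overlaps between ages and the Flnc 99-base exon is higher at 4 months.

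Apart from these exons the fold changes held along the transcripts, with a slope in Fat4. All 78 Flna exons and all 6 Lmcd1 exons tested had higher mean log2 values at 4 months, and all 24 Dchs1 exons and all 18 Fat4 exons had lower ones. These are annotated exons, some of which overlap and share reads, so the counts are not of independent values. The log2 fold changes of Fat4 exons ran from -1.26 to -0.26, with the lowest values near the 5′ end. From exons in the 5′ part of the transcript alone, the log2 value for Fat4 was -1.25 and was called (limma adjusted p = 0.0102), and from the 3′ part alone -0.42 and not called (limma adjusted p = 0.141). The log2 ratio of 3′ to 5′ RPKM of Fat4 was 2.19, 2.51 and 2.21 at PND2 and 2.96, 2.84 and 3.59 at 4 months, a mean shift of 0.83, and 4.79% of the 3196 long genes had a larger shift. The median shift of those genes was 0.19, and the shifts of the remaining members lay between 0.12 for Lmcd1 and 0.33 for Flna. The 5 called genes were called from either part alone. These fits were added after the data were seen.

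**Figure D3:**
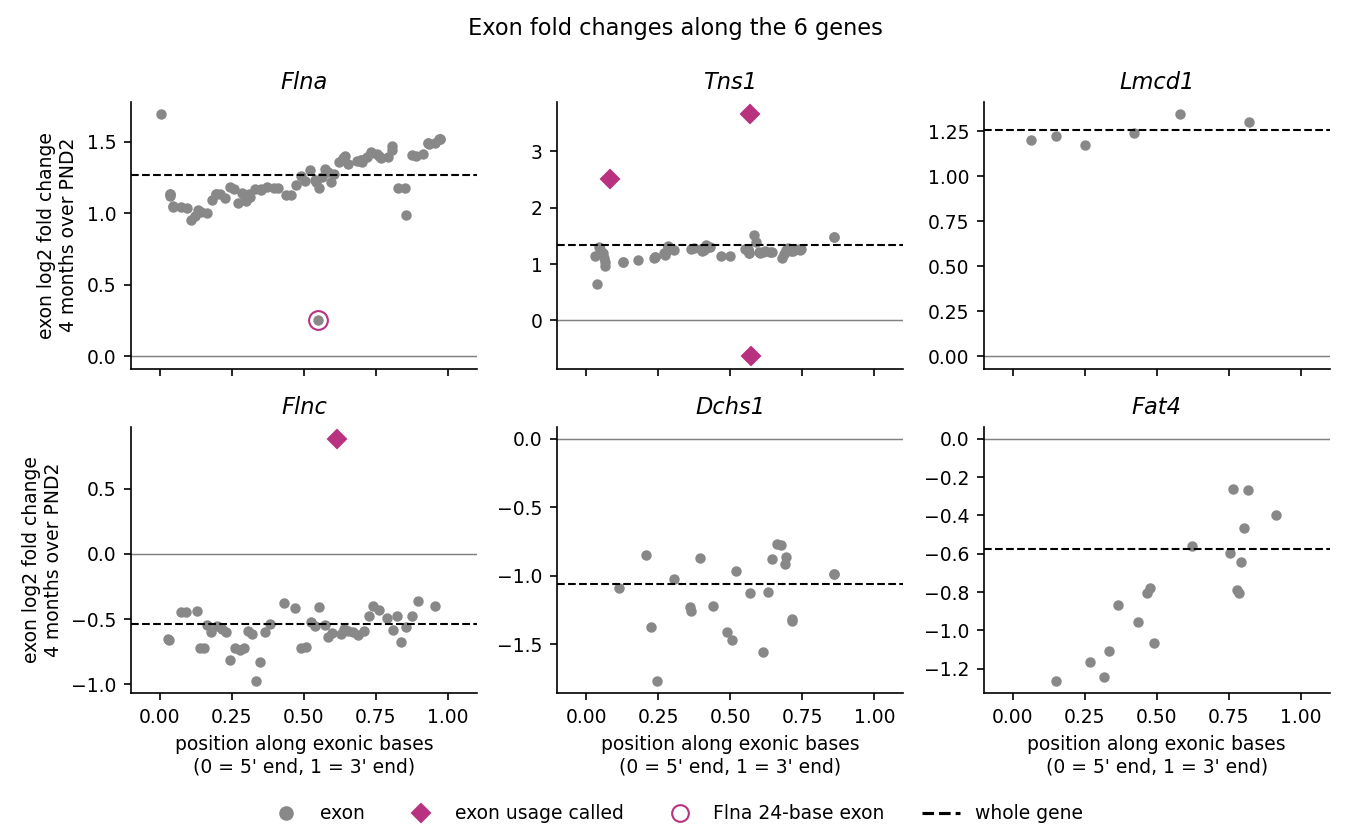
Log2 fold change of each tested exon (y axis, 4 months over PND2) against its position along the exonic bases (x axis, 0 at the 5′ end), with the whole-gene value as a dashed line and called exons as diamonds. The diamonds in Tns1 and Flnc stand away from the other exons, the circled Flna 24-base exon lies at 0.25 against a gene value of 1.27, and the Fat4 points climb from -1.26 towards the 3′ end.

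Some annotated genes overlap the members on the opposite strand, and whether counting used strand is not stated. The pseudogene Gm15645 shares 648 exonic bases with Dchs1 and was at 2.46 to 5.96 RPKM. With Fat4, C230034O21Rik shares 1209 exonic bases and Gm43539 shares 281, and the latter was at 17.8 to 35.4 RPKM. Flna, Flnc and Tns1 overlap no gene, and the genes that overlap Lmcd1 share no exonic base with it.

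This list and those below were chosen with earlier results of these data known, so their shares beside all genes describe them and test no excess. Of 25 filamin partners, 10 were called higher and 5 lower at 4 months, 60.0% against 35.8% of all genes, with a median log2 fold change of 0.38. With a filter of at least 1 RPKM the shares were 68% and 42.3%. With median scaling 13 were called higher and 2 lower, and with quantile normalization 12 and 2. A test of each gene alone with unequal variances called 4 of the 25 (16.0%), against 13.2% of all genes. Myot, a Z-disc protein that binds Flnc, was at 0.186, 0.0297 and 0.0464 RPKM at PND2 (16, 2 and 3 reads) and at 1.89, 18.8 and 6.77 RPKM at 4 months. Its 4 month values were uneven, lowest in replicate 1 and highest in replicate 2 (log2 fold change 5.18, limma adjusted p = 0.00252). Synpo2, an actin-bundling Z-disc protein, increased from 13.6 ± 1.93 to 81.0 ± 14.4 RPKM (SD, n = 3; log2 fold change 2.56, limma adjusted p = 7.05e-05). Filip1l, related to the filamin-binding protein Filip1, increased from 47.3 ± 1.23 to 216 ± 6.73 RPKM (SD, n = 3; log2 fold change 2.19, limma adjusted p = 1.54e-05). Fblim1, or migfilin, which joins filamin to cell-matrix contacts, increased from 137 ± 31.4 to 438 ± 62.4 RPKM (SD, n = 3; log2 fold change 1.69, limma adjusted p = 0.000661). Bag3, the co-chaperone that helps to clear damaged filamin, was at 49.2, 58.1 and 50.8 RPKM at PND2 and at 96.9, 124 and 181 RPKM at 4 months (log2 fold change 1.30, limma adjusted p = 0.00363).

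Of the 5 partners that decreased, 2 were also called lower with median scaling. These were Fam101b, a refilin that shapes filamin-bound actin (log2 fold change -0.79, limma adjusted p = 0.0146), and the small GTPase Rala (log2 fold change -0.68, limma adjusted p = 0.00179). Asb2, which targets filamins for degradation, decreased from 91.7 ± 8.59 to 72.0 ± 6.65 RPKM (SD, n = 3; log2 fold change -0.35, limma adjusted p = 0.0449), and was not called with median scaling. Itgb1, the integrin beta chain that filamin and tensin both bind, was at 746 ± 25.9 and 711 ± 68.9 RPKM (SD, n = 3; log2 fold change -0.07, limma adjusted p = 0.678).

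In the main fit, few genes of the Fat and dachsous pathway were called. Of 13 tested, the only calls were Sept9, higher at 4 months, and Dchs1 itself, lower, 15.4% against 35.8% of all genes. Sept9, a septin of the cytoskeleton, increased from 17.0 ± 3.44 to 28.2 ± 5.05 RPKM (SD, n = 3; log2 fold change 0.73, limma adjusted p = 0.0218), and lost its call without 4 month replicate 1 and without 4 month replicate 3. Fjx1, the kinase that modifies Fat and dachsous cadherins, was at 5.97 ± 1.09 and 6.21 ± 1.23 RPKM (SD, n = 3; log2 fold change 0.05, limma adjusted p = 0.865). Fat1, the most abundant Fat cadherin, was at 38.6, 59.0 and 41.7 RPKM at PND2 and at 45.7, 47.3 and 43.9 RPKM at 4 months, which overlapped (limma adjusted p = 1). Dchs2, the relative of Dchs1, stood at 0.466 ± 0.0497 and 0.421 ± 0.139 RPKM (SD, n = 3), far below Dchs1. The count for this list was 4 in 4 of the alternative settings. There were 3 higher and 1 lower under median scaling, and 1 higher and 3 lower with voom, with Xist as a covariate and without PND2 replicate 1. The share of the list was then 30.8%, close to that of all genes. Of all genes, 33.8% were called with median scaling, 37.4% with voom, 34.0% with Xist as a covariate and 34.1% without PND2 replicate 1.

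Core planar cell polarity genes, which orient cells within the plane of a tissue and act beside the Fat and dachsous system, were called lower in 10 of 16 tested and higher in 1, 62.5% lower against 21.1% of all genes, with a median log2 fold change of -0.62. Ptk7, a pseudokinase co-receptor, was at 33.0, 44.1 and 41.7 RPKM at PND2 and at 5.13, 4.68 and 6.48 RPKM at 4 months (log2 fold change -2.85, limma adjusted p = 6.05e-05). Ror2, a receptor for Wnt5a, decreased from 7.57 ± 0.994 to 1.16 ± 0.301 RPKM (SD, n = 3; log2 fold change -2.63, limma adjusted p = 0.00035). The cadherin Celsr1 and the membrane protein Vangl2 decreased with log2 fold changes of -1.85 and -1.80 (limma adjusted p = 0.000608 and 0.000747). Wnt5a, the ligand of Ror2, was the gene called higher (log2 fold change 0.47, limma adjusted p = 0.0468), and no gene of the list was called higher in any of the 6 fits without a library.

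Genes of the Hippo kinase core, which limits growth by holding Yap1 out of the nucleus, were called about as often as genes in general. Of 15 genes, 4 were called lower and 1 higher, 33.3% against 35.8% of all genes, with a median log2 fold change of -0.12. With median scaling 4 were called lower and 3 higher. The decreases were Tead1, Tead2 and Tead4, transcription factors that bind Yap1, and Mob1b, a kinase cofactor, while Tead3 was not called (log2 fold change -0.12). Tead2 was at 37.7, 48.1 and 43.1 RPKM at PND2 and at 8.0, 6.47 and 7.19 RPKM at 4 months (log2 fold change -2.56, limma adjusted p = 3.83e-05), and Tead1 and Tead4 had log2 fold changes of -0.84 and -1.0. Yap1 was at 23.4 ± 2.98 and 27.2 ± 2.36 RPKM (SD, n = 3; log2 fold change 0.22, limma adjusted p = 0.204).

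Of the 4 tensins, which anchor integrins to actin, 3 were called higher, Tns1 itself among them, and none lower. Without Tns1 these are 2 of 3, against 14.7% of all genes called higher. Tns2 was at 66.8, 76.2 and 71.4 RPKM at PND2 and at 177, 158 and 180 RPKM at 4 months (log2 fold change 1.26, limma adjusted p = 0.000171), close to the change of Tns1. Tns4, which lacks the actin-binding part of the other tensins, increased from 0.172 ± 0.115 to 1.36 ± 0.0689 RPKM (SD, n = 3; log2 fold change 2.50, limma adjusted p = 0.00214). Tns3 was at 27.0 ± 5.93 and 24.5 ± 0.245 RPKM (SD, n = 3; log2 fold change -0.12, limma adjusted p = 0.629).

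Genes of the focal adhesion plaque moved in both directions. Of 25, 7 were called higher and 6 lower, 52.0% against 35.8% of all genes, and the median log2 fold change was -0.011. With median scaling 9 were called higher and 5 lower, and the test of each gene alone called 4 (16.0%, against 13.2% of all genes). Lims2, an adaptor of integrin-linked kinase, was at 30.4, 25.4 and 22.1 RPKM at PND2 and at 204, 144 and 178 RPKM at 4 months (log2 fold change 2.75, limma adjusted p = 6.35e-05). The zyxin relative Lpp and the actin cross-linkers Actn4 and Actn1 increased with log2 fold changes of 1.21, 0.90 and 0.83 (limma adjusted p = 0.00107, 0.00115 and 0.00501). The 6 that decreased included the kinase Ptk2, from 41.2 ± 5.81 to 19.6 ± 0.591 RPKM (SD, n = 3; log2 fold change -1.06, limma adjusted p = 0.000859), and its substrate Pxn (log2 fold change -0.77, limma adjusted p = 0.00319). The talins, which activate integrins, parted, with Tln1 higher by 0.45 on the log2 scale (limma adjusted p = 0.0443) and Tln2 at -1.24 (limma adjusted p = 0.004).

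Of 24 LIM-domain genes, GATA factors and calcineurin pathway genes that go with Lmcd1, not counting Lmcd1 itself, 5 were called higher and 8 lower, with a median log2 fold change of -0.21. Of all genes, 14.7% were called higher and 21.1% lower. The test of each gene alone called 3 of the 25 genes that include Lmcd1 (12%, against 13.2% of all genes). Gata6, the factor that Lmcd1 represses, was at 92.6, 123 and 122 RPKM at PND2 and at 56.2, 43.5 and 47.1 RPKM at 4 months, the opposite direction from Lmcd1 (log2 fold change -1.20, limma adjusted p = 0.00117). Gata4 and Gata5 decreased too, with log2 fold changes of -0.85 and -0.82 (limma adjusted p = 0.0031 and 0.023), and so did the GATA cofactor Zfpm1 at -1.70 (limma adjusted p = 0.00145). Of the calcineurin inhibitors, Rcan2 increased from 68.5 ± 6.56 to 187 ± 21.3 RPKM (SD, n = 3; log2 fold change 1.44, limma adjusted p = 0.000224), and Rcan1 was at 53.4 ± 6.53 and 62.0 ± 17.9 RPKM (SD, n = 3; limma adjusted p = 0.578). Nfatc1, the calcineurin-dependent factor needed for valve formation, decreased (log2 fold change -0.88, limma adjusted p = 0.00406). LIM proteins that increased included Fhl1, Crip1 and Tes (log2 fold changes 1.14, 1.17 and 1.55; limma adjusted p = 0.004, 0.00193 and 0.00424).

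Of 20 other genes of valve prolapse and myxomatous valves, 7 were called higher and 9 lower, 80.0% against 35.8% of all genes. The study's own table of changed matrix genes holds Col5a1, Col5a2 and Tnxb, so this share is not independent of the choice of genes. With median scaling, and with quantile normalization, 8 were called higher and 7 lower. The 9 that decreased included the fibrillar collagen genes Col5a1 and Col5a2, both at -1.35 on the log2 scale (limma adjusted p = 0.000805 and 0.000818), and Fbn1, the microfibril gene of Marfan syndrome, at -1.11 (limma adjusted p = 0.000874). Tnxb, or tenascin-X, increased from 29.7 ± 8.24 to 83.1 ± 17.5 RPKM (SD, n = 3; log2 fold change 1.5, limma adjusted p = 0.00229). Htr2b, the serotonin receptor tied to drug-induced valve disease, was at 0.325, 0.154 and 0.417 RPKM at PND2 and at 3.32, 2.66 and 3.15 RPKM at 4 months (log2 fold change 3.03, limma adjusted p = 0.000669). Dzip1, a cilium gene of familial prolapse, was at 7.53 ± 1.64 and 10.5 ± 1.02 RPKM (SD, n = 3; log2 fold change 0.50, limma adjusted p = 0.0795), and was called higher with median scaling (0.62) and with quantile normalization (0.55).

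**Figure D4:**
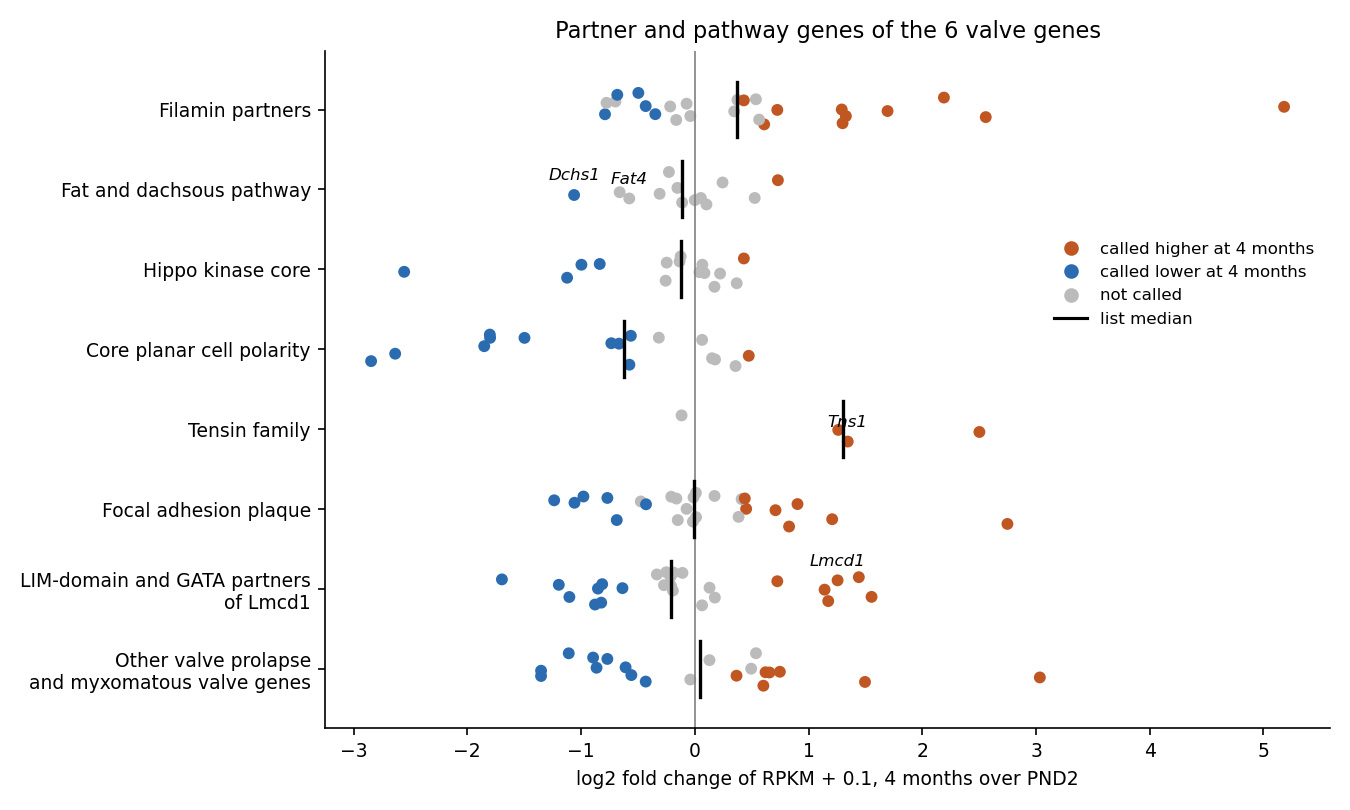
Log2 fold change (x axis, 4 months over PND2) of each tested gene of the partner and pathway lists (rows), in orange where called higher, blue where called lower and grey where not called, with the list median as a black line. Core planar cell polarity genes lie mostly to the left (median -0.62), tensins mostly to the right, and the Fat and dachsous pathway is mostly grey apart from Dchs1 and Sept9.

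Marker genes of other cell types differed between the ages beside these results. The libraries hold whole valve tissue, in which fewer cells of a type and less RNA per cell cannot be told apart. Summed RPKM of 15 cardiomyocyte markers was 22678, 23283 and 25426 at PND2 and 7387, 13471 and 9227 at 4 months, led by Actc1. None of them was at 0, 10 were called lower and none higher. Flnc, a muscle gene, decreased alongside, and its part in this was not tested. Of the 4 month libraries, replicate 1 had the lowest cardiomyocyte sum and the lowest Flnc, but replicate 2 had the highest sum and not the highest Flnc. Of the PND2 libraries, replicate 3 had the highest sum and the lowest Flnc, which varied little at that age.

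Smooth muscle markers moved with Flna, Tns1 and Lmcd1. The summed RPKM of 10 of them, led by Acta2, was 7533, 8678 and 8706 at PND2 and 28150, 17024 and 20376 at 4 months, and 8 were called higher and none lower. At 4 months the sum was highest in replicate 1 and lowest in replicate 2, and Flna, Tns1 and Lmcd1 had their highest and lowest values in the same libraries. At PND2 the sum and all 3 genes were lowest in replicate 1. The sum was highest in replicate 3, just above replicate 2 (8706 and 8678 RPKM), and all 3 genes were highest in replicate 2. Myh11, the smooth muscle myosin, increased from 156 ± 38.6 to 1729 ± 451 RPKM (SD, n = 3; log2 fold change 3.47, limma adjusted p = 0.00013), while Des and Myocd had log2 fold changes of -0.31 and 0.03 (limma adjusted p = 0.145 and 0.899). The part of smooth muscle RNA in the increase of the members was not tested.

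Endothelial markers were called lower in 9 of 10, none higher, with a sum of 801 RPKM on average at PND2 and 436 at 4 months, led by Eng. Interstitial and fibroblast markers were abundant in every library, with sums of 6898 to 7518 RPKM at PND2 and 8917 to 11156 RPKM at 4 months, led by Dcn, and 4 were called higher and 4 lower. The mean sum at 4 months was 1.39 times that at PND2, and 0.983 times without Dcn. Macrophage markers were called higher in 6 of 8, with a mean sum of 229 RPKM at PND2 and 490.5 RPKM at 4 months, led by C1qa. Adipocyte markers were called higher in 6 of 8 and were uneven at 4 months, with sums of 347, 1439 and 329 RPKM against 64.6 to 149 RPKM at PND2, led by Cfd, and Cidec, Lep and Retn were at 0 in each PND2 library. The mean adipocyte sum was 7.19 times as high at 4 months, and 2.62 times without Cfd. Schwann cell markers were called higher in 3 of 7, with sums of 16.1 to 32.4 RPKM at PND2 and 50.7 to 57.3 RPKM at 4 months, led by S100b. Of 8 erythroid markers, led by Hba-a2, 5 were tested and limma called none of them, with an unadjusted p under 0.05 for 1, and their sums were 1865 to 2599 RPKM at PND2 and 749.6 to 2158 RPKM at 4 months. The part of these cell types in the members' differences was not tested.

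**Figure D5:**
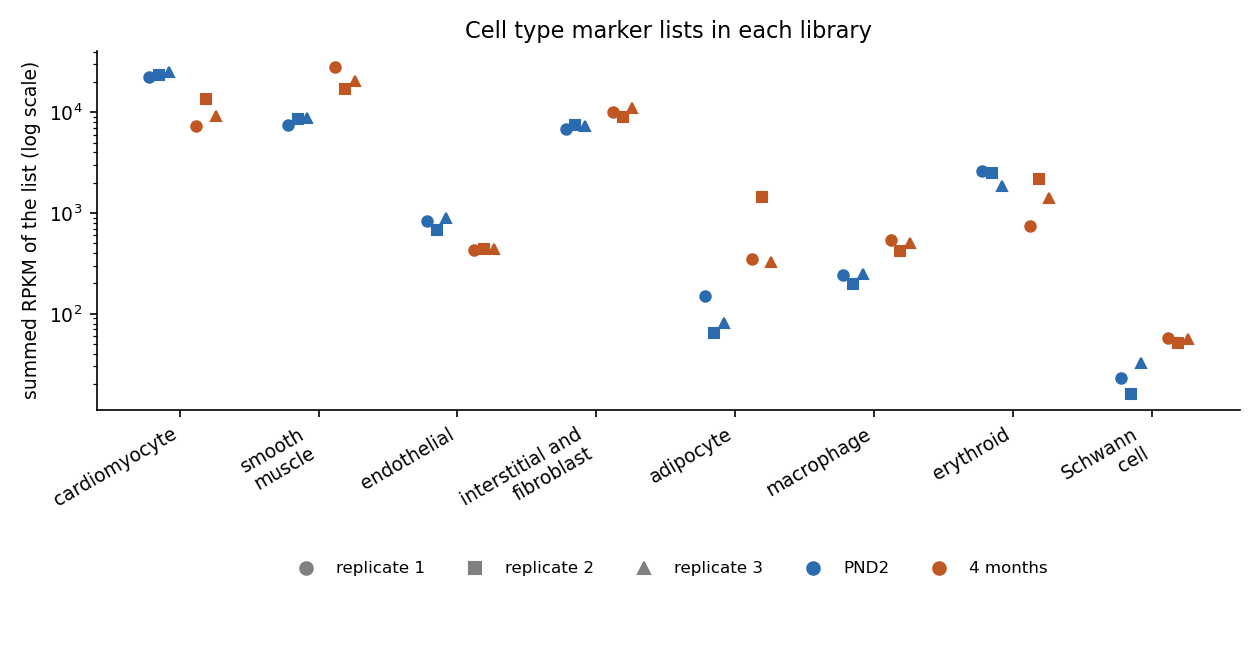
Summed RPKM (y axis, log scale) of each cell type marker list (x axis) in the 3 PND2 libraries (blue) and the 3 4 month libraries (orange), with marker shape giving the replicate number. Cardiomyocyte sums are lower and smooth muscle sums higher in every 4 month library, and the adipocyte sum of 4 month replicate 2 (1439 RPKM) stands above the other libraries.

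Each member was set beside the 10613 tested protein-coding genes with a mean of at least 5 RPKM, by the root mean square difference of their log2 profiles over the 6 libraries, each centred on its own mean. The nearest to Flna were Ano1 and Zfp703, at 0.094 and 0.0998. The nearest to Tns1 were Aatk and Unc45a, at 0.067 and 0.068, and to Lmcd1 Bcam and Hmha1, at 0.031 and 0.055. Flnc was most like Cinp and 2410015M20Rik, at 0.025 and 0.028. Dchs1 was most like Angptl2 and Zdhhc16, at 0.040 and 0.061, and Fat4 was most like Igsf3 and Chmp6, at 0.048 and 0.054. No member was among the nearest genes of another.

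The promoters of 5 of the 6 members, all but Dchs1, were searched for the CArG box, the motif of serum response factor, which drives many actin and smooth muscle genes. RefSeq promoter windows of 250 bases before and 50 bases after the start site on GRCm38 were used, 6 windows for Flna, Flnc, Fat4, Tns1 and Lmcd1, and the motif reads the same on both strands. Of these 6 windows it was found in that of Lmcd1 alone, against 1.63% of all 32851 windows, and the stretch is shown because Lmcd1 increased beside the smooth muscle genes. The box is in capitals, 215 bases before the start site, on the plus strand at chr6:112273518-112273577: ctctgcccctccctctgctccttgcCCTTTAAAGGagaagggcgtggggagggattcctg. These coordinates are those of the whole stretch shown, and the box is its part in capitals. A match describes the sequence only, and whether the site is bound was not measured.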

How the data were processed

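Per the study's methods and the labels, the authors made libraries with a stranded TruSeq kit, quality-filtered and end-trimmed the read pairs, mapped to mm10 with TopHat (version 2.1.0 in the submitters' processing notes) and used easyRNASeq with Ensembl release 83 for counting. They deposited RPKM for every gene and every exon of each library, without pooling. Undoing the scaling by length and library total gave whole reads for 100% of gene values above 0, within 0.01.

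From these values, limma 3.58.1 in R 4.3.3 was fitted to log2(RPKM + 0.1) with eBayes and a trend, 2-sided, over the 25903 genes with at least 0.1 RPKM in 3 libraries. P-values were adjusted over all genes, and exons were tested with diffSplice. Adding 0.1 understates fold changes of low genes. Exons with the same coordinates in a gene were used once, and overlapping exons with other coordinates were kept. Of 2 rows with the symbol Tgfb1i1, the higher was used. Summaries were written with Python 3.11.15, pandas 2.3.3, scipy 1.17.1 and matplotlib 3.10.9. The fits were tested on simulated data.

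Named were the members, the genes of the lists (those called with the largest changes, and those needed to describe a list), cell type markers, Xist, and the 2 genes most like each member. The members and lists were chosen with earlier results of these data known. Alternatives covered the pseudocount, the filter, the trend, the test, scaling, Xist as a covariate, read counts, exon settings and each library left out. The labels name biological replicates of pooled mice, so the p-values of genes measure the spread between pools. Those of exons do not, since diffSplice pools the spread over all tested exons of a gene. A planned comparison of related genes is not reported here.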

Additional observations from a re-analysis of the deposited data

How the results depend on the processing

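Of the 6 members, Flnc, Tns1 and Lmcd1 kept their direction and call under all 19 alternatives run for each, and Flna and Dchs1 under 18. A test of each gene alone with unequal variances left the log2 fold changes at 1.27 and -1.06 but lost both calls (adjusted p = 0.0626 and 0.0851, by the same test over all genes). That test called 3408 genes in all (13.2%), against 9273, and 4 filamin partners (16.0%), 0 genes of the Fat and dachsous pathway, 2 of the Hippo core (13.3%), 6 of planar cell polarity (37.5%), 4 of the focal adhesion plaque (16.0%), 3 of the list of Lmcd1 and its partners (12%) and 5 of the other prolapse genes (25%). Fat4 gained a call with voom on recovered reads (-0.58), with Xist as a covariate (-0.41), from exons of the 5′ part alone (-1.25) and without PND2 replicate 1 (-0.81); leaving out single libraries moved it between -0.81 and -0.43. The Fat and dachsous count of 2 became 4 with median scaling, with voom and with Xist as a covariate, and lay between 1 and 4 with a library left out (4 without PND2 replicate 1, 1 without 4 month replicate 1 or 3). The cause was not tested.

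Exon results depended on the read minimum. With a mean of at least 10 reads, 10 member exons and 2249 exons in all were called, against 4 and 1093, and the Flna 24-base exon was called at an unchanged -1.0. Leaving out single libraries moved the Flna exon between -1.01 and -0.98 (diffSplice adjusted p between 0.0195 and 0.475, so that its call came and went with single libraries), the Flnc 24-base exon between -0.27 and 0.025 (never called) and the total between 710 and 1428, with 710 without 4 month replicate 3. With voom weights the Tns1 224-base exon kept its difference of 1.28 and lost its call. The 3 composition differences moved by less than 1 pooled SD of the ages with a library left out or from reads. From exons of the 5′ part alone, Tns1's share turned (-2.22 percentage points, against 5.78) and so did the Dchs1 to Fat4 log2 ratio (0.15, against -0.49), and from the 3′ part Tns1's share differed by 8.74 percentage points. With few reads on short exons, 15 to 21 for the Tns1 24-base exon at PND2, depth limits their precision.

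Replicate numbers were used to test pairing. Deviations from the age means of same-numbered libraries correlated at 0.0439, -0.0608 and -0.16, and those of differently numbered libraries between -0.176 and 0.233. Same-numbered libraries were thus no more alike than others. Whether they were handled together cannot be read from so few libraries. With the number as a replicate block, all 5 members kept their calls (limma adjusted p between 0.00453 and 0.0193), the Fat and dachsous count was 1 (Dchs1, without Sept9), planar cell polarity had 9 lower and 0 higher, the Hippo count was 3 and 7167 genes were called in all. The Flna 24-base exon, not called without the block, had an adjusted p of 0.432 (diffSplice in limma).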
